A study of Mus musculus with 10 samples.

Results

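The genes described here are 30 members of the machinery that makes, senses, moves and exports cholesterol, measured in mouse kidney after ischaemic injury. They were taken as a list of gene symbols: the transcripts of each gene were summed in the bulk RNA table, and the symbol rows were read in both single-cell tables. All 30 were found among the 33644 genes of the bulk table, and all 30 were among the 17591 genes with enough counts to be tested. By role they are 18 synthesis genes, of which 7 lead from acetyl-CoA to isoprenoids and 11 from squalene to cholesterol, 5 sterol sensing genes, 3 genes of transport and esterification, and 4 genes of the liver X receptor (LXR) and export group.

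All mice were 8 weeks old by their labels, and the bulk data hold 8 groups. In the 3 injury arms the artery of 1 kidney was tied for 15 minutes and both kidneys were taken 2 weeks later, which gave an injured and a contralateral group per arm. The wild-type arm was C57/BL6 treated with tamoxifen. The floxed vehicle arm was Pax8creERT2;Ihhfl/fl without tamoxifen, and the labelled Ihh-deleted arm was the same strain with tamoxifen. In that strain an inducible Cre under Pax8, a gene of the tubular epithelium, is meant to delete Ihh, the Indian hedgehog ligand, so Ihh of other cells is not targeted. The first pair of arms is called intact here. The other groups were uninjured C57/BL6 kidneys and C57/BL6 kidneys left after removal of the opposite one, without a time in the labels. Of single cells there was 1 library each from an injured and an uninjured C57/BL6 kidney, made from live cells.

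Cholesterol is built from acetyl-CoA through mevalonate, isoprenoid and squalene intermediates, and most enzymes of the route are transcribed under the sterol regulatory element binding protein SREBP-2. When membranes hold little sterol, SCAP carries the SREBP precursors to the Golgi for cleavage, and INSIG proteins hold them in the endoplasmic reticulum when sterol is plentiful. Excess sterol gives rise to oxysterols, which activate LXR and with it the exporters ABCA1 and ABCG1. In kidney the proximal tubule takes up lipids and proteins from the filtrate and burns fatty acids, and macrophages that enter injured tissue handle cholesterol from cell debris.

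Promoter sequences are shown because the synthesis genes share a known type of control and the exporters another. RefSeq promoters of the GRCm38.p6 build were found for 24 of the 30 members, and the 250 bases before each start were searched on both strands. The sterol regulatory element type TCACNCCAC was found in 1 member, Hmgcs1, 137 bases before the start, and in 1.05% of all 32851 promoters searched. The shorter TCACNCCA, which lies inside the first motif and was added after its result was seen, was found in Hmgcs1, Msmo1 and Srebf2 and in 3.67% of all promoters. The first 2 promoters below carry that type in capitals, with 9 capital letters in Hmgcs1 and 8 in Msmo1. Hmgcs1 lies on the plus strand at chr13:119690101-119690350 and Msmo1 on the minus strand at chr8:64733579-64733828.
Hmgcs1: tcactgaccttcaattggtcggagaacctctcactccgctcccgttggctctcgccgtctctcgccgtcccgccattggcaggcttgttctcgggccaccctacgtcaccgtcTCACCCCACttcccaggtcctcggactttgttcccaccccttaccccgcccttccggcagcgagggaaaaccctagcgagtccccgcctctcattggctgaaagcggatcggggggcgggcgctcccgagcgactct
Msmo1: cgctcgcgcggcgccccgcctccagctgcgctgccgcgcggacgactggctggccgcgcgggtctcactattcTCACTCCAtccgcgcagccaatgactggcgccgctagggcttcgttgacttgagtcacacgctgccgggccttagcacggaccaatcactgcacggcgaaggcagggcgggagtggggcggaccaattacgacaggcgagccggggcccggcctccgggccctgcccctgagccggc
The CCAAT box, the site type of NF-Y, a partner of SREBP, was found in 14 of the 18 promoters of synthesis genes, in 20 of the 33 promoters of members and in 33.8% of all promoters. Some genes have several starts: by gene, 14 of the 15 synthesis genes with a promoter and 19 of 24 members held it at 1 start or more. Acat2 was the synthesis gene without it, and 9 of the 15 held more than 1 at a single start. The GC box GGGCGG, the site type of Sp1, was in 15 of 18 promoters of synthesis genes, in 23 of 33 of members and in 32.7% of all promoters, and by gene in 14 of 15 and 20 of 24. Mvd at chr8:122443423-122443672 and Cyp51 at chr5:4104698-4104947, both on the minus strand, are printed with CCAAT or its reverse complement in capitals.
Mvd: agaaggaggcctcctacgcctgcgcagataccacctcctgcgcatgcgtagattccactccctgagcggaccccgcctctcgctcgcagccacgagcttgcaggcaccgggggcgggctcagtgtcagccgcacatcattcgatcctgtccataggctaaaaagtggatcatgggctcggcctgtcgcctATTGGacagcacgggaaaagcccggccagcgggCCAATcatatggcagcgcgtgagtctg
Cyp51: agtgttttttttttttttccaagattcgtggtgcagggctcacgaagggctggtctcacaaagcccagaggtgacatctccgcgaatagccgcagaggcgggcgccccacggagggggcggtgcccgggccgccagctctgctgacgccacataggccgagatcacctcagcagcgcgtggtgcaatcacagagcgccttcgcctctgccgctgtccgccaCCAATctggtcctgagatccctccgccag
The LXR type, a direct repeat read here as GGTNA, then 5 bases of any kind, then GGTNA again, was found in Abca1, 67 bases before the start, and at 1 of 3 starts of Srebf1, 182 bases before it, both times on the opposite strand. It was in 0.621% of all promoters and in none of the 18 promoters of synthesis genes. Abca1 lies at chr4:53159896-53160145 and this Srebf1 start at chr11:60210472-60210721, both on the minus strand, with the match in capitals.
Abca1: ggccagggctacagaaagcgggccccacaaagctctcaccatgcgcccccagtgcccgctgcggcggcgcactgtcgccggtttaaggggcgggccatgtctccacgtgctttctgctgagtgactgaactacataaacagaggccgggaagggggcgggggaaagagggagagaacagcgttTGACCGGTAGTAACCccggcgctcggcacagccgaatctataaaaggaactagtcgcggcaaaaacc
Srebf1: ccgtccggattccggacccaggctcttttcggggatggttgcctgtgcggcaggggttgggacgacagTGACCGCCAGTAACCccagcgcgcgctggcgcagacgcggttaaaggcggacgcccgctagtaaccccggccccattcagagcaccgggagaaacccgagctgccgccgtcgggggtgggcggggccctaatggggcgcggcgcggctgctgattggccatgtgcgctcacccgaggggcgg
A match describes letters in these windows, and binding was not measured.

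Bulk depth ran from 593231 to 37975751 counts over the 29 libraries used. The 3 libraries left out, 2 uninjured and 1 nephrectomy, carried a heart profile, with 4.48% to 4.70% of counts from 7 heart genes and at most 0.00431% from 11 proximal tubule markers. The deepest library, contralateral floxed vehicle library 2, stood apart, with Abca1 at 45.0 CPM against 102 to 151 in the others of its group, and nephrectomy library 1 held Myh6 of heart muscle at 314 CPM. CPM here is a count scaled to the library's TMM-adjusted total, and does not allow for transcript length. Test calls that turn on these libraries are given without them. Ihh did not pass the test as lower in the labelled Ihh-deleted arm: its log2 difference was -0.72 ± 0.33 (SE) in injured kidneys (adjusted p = 0.0828) and -0.46 ± 0.32 in contralateral ones (adjusted p = 0.832). It stood at 4.25 to 6 CPM in injured libraries of that arm and at 4.77 to 13.7 CPM in the intact arms, so the arm is named by its label throughout. The labels do not say that the libraries of a group came from separate animals, so p-values measure no more than how far these libraries spread. All adjusted p-values are from edgeR's quasi-likelihood test over the 17591 genes, and changes past the threshold of 0.05 are called rises or falls.

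Cholesterol synthesis genes were lower in injured than in contralateral kidneys, and the exporters Abca1 and Abcg1 were higher. Averaged over the 3 arms, 15 of 18 synthesis genes fell, Pmvk rose, and Fdps and Fdft1 did not pass. Of all 30 members 22 fell and 5 rose, 27 in all, where 34.7% of all genes tested fell and 39.0% rose, 73.7% in all. The synthesis genes had a median log2 change of -0.71, and all genes tested one of 0.05. Whole kidneys were sequenced, so fewer cells of a type and less RNA per cell cannot be told apart. The 11 proximal tubule markers moved with these falls: all 11 fell, with a median of -1.67, and their summed share was 0.514% to 3.01% of counts in injured and 3.01% to 3.96% in contralateral libraries. All 9 macrophage markers rose, with a median of 2.27, and their share went from 0.0121% to 0.0245% in contralateral to 0.0224% to 0.259% in injured libraries. The part of either cell type in the changes was not tested in these bulk data.

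Among the enzymes up to isoprenoids, Mvd, mevalonate diphosphate decarboxylase, fell the most. Injured libraries held Mvd at 9.30, 7.86, 12.6 and 13.3 CPM in the wild-type arm, at 15.0, 10.3, 15.2 and 9.69 in the floxed vehicle arm and at 16.8, 22.2, 28.0 and 15.6 in the labelled Ihh-deleted arm. The 12 contralateral libraries ran from 29.8 to 72.8 CPM, above every injured one. The log2 change over the 3 arms was -1.45 ± 0.14 (adjusted p = 2.72e-09), and 72.8 CPM was the deepest library. Acat2, the cytosolic thiolase that joins acetyl-CoA units, was likewise lower in all 12 injured libraries. It stood at 36.0 to 76.2 CPM in the wild-type arm, at 38.4 to 91.2 in the floxed vehicle arm and at 62.6 to 127 in the labelled Ihh-deleted arm, against 130 to 223 in contralateral kidneys, with a log2 change of -1.19 ± 0.14.

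Hmgcs1, the HMG-CoA synthase that had the highest level per transcript length of the 30, was lower in both intact arms without overlap. Injured libraries held 213, 187, 294 and 332 CPM in the wild-type arm, 386, 262, 379 and 166 in the floxed vehicle arm and 458, 721, 646 and 316 in the labelled Ihh-deleted arm. Contralateral libraries ran from 629 to 920 CPM. In the labelled Ihh-deleted arm 2 injured libraries lay inside that range. The log2 change was -1.59 ± 0.24 in the wild-type arm (adjusted p = 8.52e-06), -1.29 ± 0.24 in the floxed vehicle arm (adjusted p = 7.38e-05) and -0.47 ± 0.24 in the labelled Ihh-deleted arm, which did not pass (adjusted p = 0.125).

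Idi1, the isomerase that makes the reactive isoprenoid unit, was also lower in both intact arms without overlap. It stood at 88.2, 65.8, 96.9 and 161 CPM in injured wild-type, at 138, 103, 116 and 58.9 in injured floxed vehicle and at 161, 315, 269 and 145 in injured labelled Ihh-deleted libraries. Contralateral libraries held 174 to 387 CPM, and only injured libraries of the labelled Ihh-deleted arm reached into that range. Its log2 change over the 3 arms was -1.01 ± 0.17. Mvk, mevalonate kinase, fell by about as much in each arm (-0.46, -0.52 and -0.52), with each arm near the threshold (adjusted p = 0.0486, 0.028 and 0.049). In the labelled Ihh-deleted arm that call was lost without any 1 of its libraries, in the wild-type arm without any but contralateral library 2, and in the floxed vehicle arm without injured library 1 or contralateral library 2. Pmvk, the next kinase, was the 1 synthesis gene that rose, by 0.42 ± 0.16, and passed in no single arm. Its level was low, 3.13 to 10.0 CPM in contralateral and 4.80 to 10.9 CPM in injured libraries, and the call was lost without injured labelled Ihh-deleted library 1. Fdps, the farnesyl diphosphate synthase, stood at -0.19 ± 0.11 (adjusted p = 0.13).

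From squalene onward, Cyp51, the lanosterol demethylase, fell the most. It was at 56.4, 53.3, 70.6 and 85.0 CPM in injured wild-type, at 69.4, 78.1, 114 and 55.4 in injured floxed vehicle and at 150, 193, 200 and 112 in injured labelled Ihh-deleted libraries. Contralateral libraries held 191 to 303 CPM, so the intact arms lay wholly below them and 2 labelled Ihh-deleted libraries did not. The fall was 3.44-fold in the wild-type arm (log2 -1.78 ± 0.20) and 3.22-fold in the floxed vehicle arm (log2 -1.69 ± 0.20), and the labelled Ihh-deleted arm stood at -0.42 ± 0.19 (adjusted p = 0.0921).

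Sqle, the squalene epoxidase that catalyses a rate-limiting oxidation, was low in the injured kidneys of the intact arms, and 3 of 4 injured labelled Ihh-deleted libraries lay in the contralateral range. Injured libraries held 52.3, 42.3, 54.7 and 75.2 CPM in the wild-type arm, 66.9, 65.7, 66.3 and 46.1 in the floxed vehicle arm, and 96.4, 116, 112 and 82.0 in the labelled Ihh-deleted arm. The contralateral range was 82.8 to 136 CPM. The log2 change was -0.91 ± 0.17 and -0.79 ± 0.17 in the intact arms and -0.04 ± 0.17 in the labelled Ihh-deleted arm (adjusted p = 0.883).

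The late steps that shape the sterol ring also fell. Ebp, the sterol isomerase, was below every contralateral library in all 12 injured ones, at 15.2 to 41.5 against 45.5 to 95.7 CPM, with a log2 change of -1.19 ± 0.11. Nsdhl, a dehydrogenase of C4 demethylation, held 16 to 26.1 CPM in injured wild-type, 13.7 to 24.7 in injured floxed vehicle and 22.7 to 43.7 in injured labelled Ihh-deleted libraries, against 32 to 76.8 in contralateral ones. Its log2 change was -1.01 ± 0.13. Sc5d and Dhcr7, the desaturase and the reductase near the end of the route, also lay below every contralateral library, with log2 changes of -0.72 ± 0.07 and -0.72 ± 0.08. Tm7sf2 (-0.70), Hsd17b7 (-0.53), Msmo1 (-0.45) and Lss (-0.27) fell by less, and Fdft1, the squalene synthase, did not pass (-0.18 ± 0.10, adjusted p = 0.0969). On a scale per transcript length without TMM factors (TPM), 13 of the 18 synthesis genes had a lower mean in injured kidneys. Among these 13, Mvk (16.3 against 17 TPM), Idi1, Sqle, Tm7sf2 and Hsd17b7 differed by less than the SD of either group. Of the members that fell past the threshold, 6 did not have a lower mean on that scale: Lss, Msmo1, Insig2, Srebf1, Scap and Nr1h2. Scap (65.9 TPM in both groups) and Msmo1 (44.4 in injured against 44 in contralateral kidneys) barely differed.

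**Figure D1:**
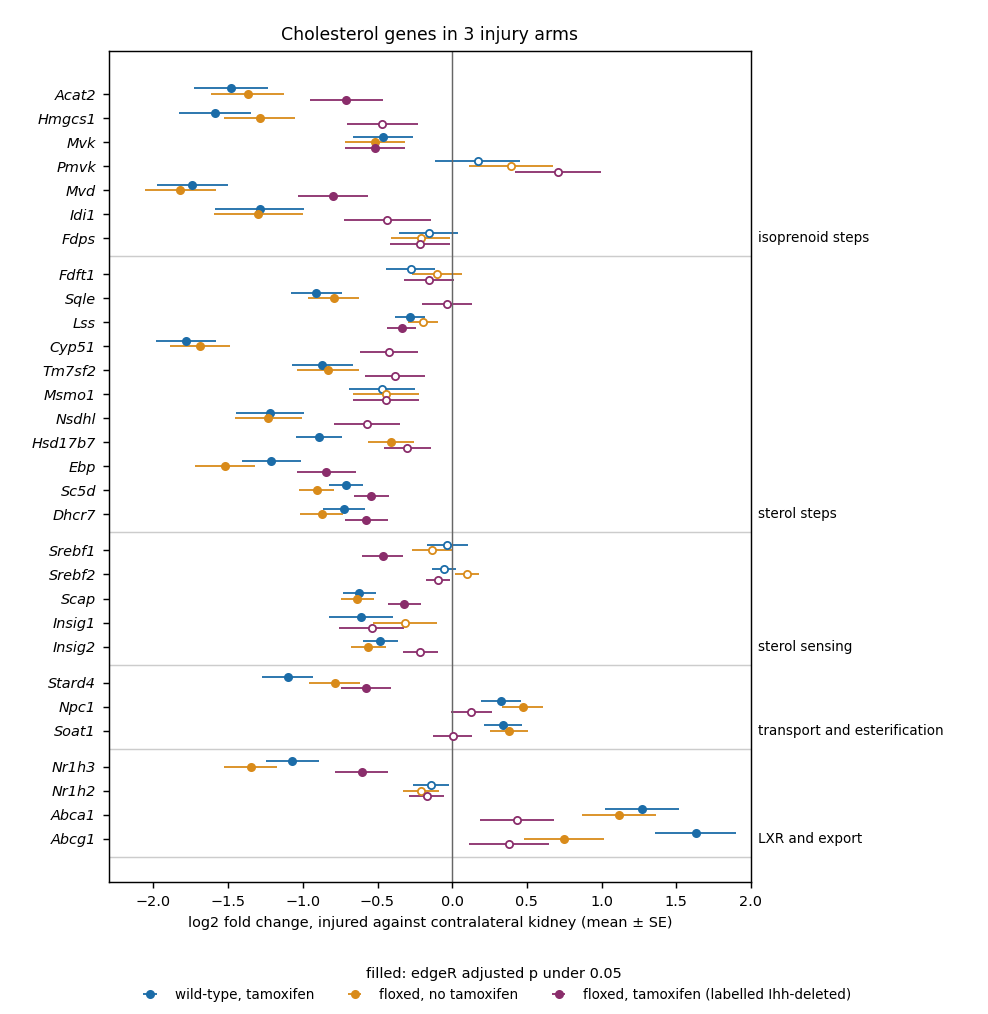
Log2 fold change of each of the 30 members in injured against contralateral kidneys, with its standard error, in the 3 injury arms; filled points passed an edgeR adjusted p of 0.05. Of the synthesis genes 17 lie left of 0 in each arm and Pmvk right of it, as do Abca1 and Abcg1, with the labelled Ihh-deleted arm nearest to 0 for Cyp51 (-0.42), Sqle (-0.04) and Abca1 (0.43).

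Of the 5 sterol sensing genes 4 fell and Srebf2 did not pass, with a median log2 change of -0.42. Srebf2, which encodes SREBP-2, stood at -0.02 ± 0.05 (adjusted p = 0.748), with 104 to 137 CPM in injured and 112 to 131 CPM in contralateral libraries. Its sign turned with RLE factors and with DESeq2, at 0.07 each, and in the floxed vehicle arm it then passed as higher. In TPM the mean of Srebf2 was also higher in injured kidneys, at 66.8 ± 10.6 (SD) against 49.8 ± 6.46 in contralateral ones. Scap, the escort of SREBP, fell by 0.53 ± 0.06 and passed in all 3 arms, in the labelled Ihh-deleted arm not without injured library 2 or 4 or contralateral library 3, and Insig2, a retention factor, fell by 0.42 ± 0.07. Insig1, the retention factor that is itself an SREBP target, fell by 0.49 ± 0.12 and ran from 40.7 to 80.1 CPM in injured and from 55.0 to 113 CPM in contralateral libraries, with wide overlap. Srebf1, which encodes the SREBP of fatty acid synthesis and is an LXR target, fell by 0.21 ± 0.08 over the 3 arms. The labelled Ihh-deleted arm passed alone (-0.46 ± 0.14, adjusted p = 0.0127), while the wild-type and floxed vehicle arms stood at -0.03 and -0.13. That call was lost without injured library 4 or contralateral library 2 of the arm. With RLE factors or DESeq2 the fall of Srebf1 over the 3 arms did not pass.

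Stard4, a carrier that moves cholesterol between membranes, fell by 0.82 ± 0.10 and was lower in all 12 injured libraries. It stood at 47.4, 55.8, 74.5 and 81.2 CPM in the wild-type arm, at 80.3, 71.0, 115 and 59.4 in the floxed vehicle arm and at 101, 95, 122 and 70.6 in the labelled Ihh-deleted arm, against 130 to 158 CPM in contralateral kidneys. Npc1, which releases cholesterol from lysosomes, rose by 0.31 ± 0.08. Soat1, which esterifies cholesterol for storage, rose by 0.24 ± 0.07, from 62.0 to 93.5 CPM in contralateral to 73.2 to 109 CPM in injured libraries. Both passed in the intact arms (Npc1 0.33 and 0.47, Soat1 0.34 and 0.38) and neither did in the labelled Ihh-deleted arm (0.13 and 0.00). In the wild-type arm the call of Npc1 was lost without any 1 library but injured library 3, and that of Soat1 without injured library 2 or contralateral library 1 or 3. In the floxed vehicle arm the call of Soat1 was lost without injured library 1.

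Abca1, the exporter that loads cholesterol onto lipid-poor apolipoprotein, was above every contralateral library in both intact arms. Injured libraries held 288, 287, 251 and 281 CPM in the wild-type arm, 251, 244, 183 and 244 in the floxed vehicle arm and 173, 141, 94.1 and 206 in the labelled Ihh-deleted arm. Contralateral libraries held 45.0 to 151 CPM, and 45.0 was the deepest library. The rise was 2.41-fold in the wild-type arm (log2 1.27 ± 0.25, adjusted p = 0.00013) and 2.18-fold in the floxed vehicle arm (log2 1.12 ± 0.25, adjusted p = 0.000431), and the labelled Ihh-deleted arm stood at 0.43 ± 0.25 (adjusted p = 0.17).

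Abcg1, which exports cholesterol to high-density lipoprotein, was at 34.5, 51.3, 44.7 and 27.2 CPM in injured wild-type, at 28.1, 20.5, 20.9 and 28.5 in injured floxed vehicle and at 17.0, 12.4, 7.02 and 23.9 in injured labelled Ihh-deleted libraries. Contralateral libraries held 9.53 to 21.9 CPM. Only the wild-type arm lay wholly above that range, with a log2 rise of 1.63 ± 0.27. The floxed vehicle arm rose by 0.75 ± 0.27 (adjusted p = 0.0169), a call lost without contralateral floxed vehicle library 2 or 4. The labelled Ihh-deleted arm stood at 0.38 ± 0.27 (adjusted p = 0.272).

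On the CPM scale the LXR genes did not move with the exporters. Nr1h3, which encodes LXR alpha, fell by 1.01 ± 0.10 (adjusted p = 8.44e-09). It held 15.2, 16, 16.2 and 19.4 CPM in injured wild-type, 20.5, 15.0, 21.3 and 13.7 in injured floxed vehicle and 22.6, 27.9, 29.5 and 21.8 in injured labelled Ihh-deleted libraries, all below the contralateral range of 32.5 to 70.0 CPM. Nr1h2, which encodes LXR beta, fell by 0.17 ± 0.07, a call that was lost with RLE factors, with DESeq2, and without injured library 2 or contralateral library 1 of the labelled Ihh-deleted arm. In TPM the mean of Nr1h2 was higher in injured kidneys, at 78.8 ± 12.2 (SD) against 59.9 ± 3.81 in contralateral ones. That of Nr1h3 was lower there too, at 30.6 ± 4.67 against 45.2 ± 4.67 TPM. RNA levels do not give receptor activity, which was not measured.

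Within the wild-type arm 19 members fell and 4 rose, 23 in all, against 28.7%, 32% and 60.7% of genes tested. Within the floxed vehicle arm 17 fell and 4 rose, 21 in all, against 31.0%, 32.6% and 63.7%. Within the labelled Ihh-deleted arm 11 fell and 0 rose, against 14.6% and 19.3%, or 33.8% in all. The labelled Ihh-deleted count was 3 without injured library 4 of that arm: Mvd, Lss, Srebf1, Stard4, Nr1h3, Scap, Acat2 and Mvk then did not pass. The 12 injured libraries lay below all 12 contralateral ones in 7 members, against 6.40% of genes tested: Mvd, Ebp, Sc5d, Dhcr7, Stard4, Acat2 and Nr1h3. In the intact arms alone 16 members were lower without overlap (19.7% of genes) and Abca1 and Npc1 were higher (17.7%). With RLE factors the median of all genes moved from 0.07 to 0.19 in the floxed vehicle arm. Relative to it, the synthesis median there was -0.92 with TMM and -0.91 with RLE, and Abca1 was 1.05 above it with both.

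**Figure D2:**
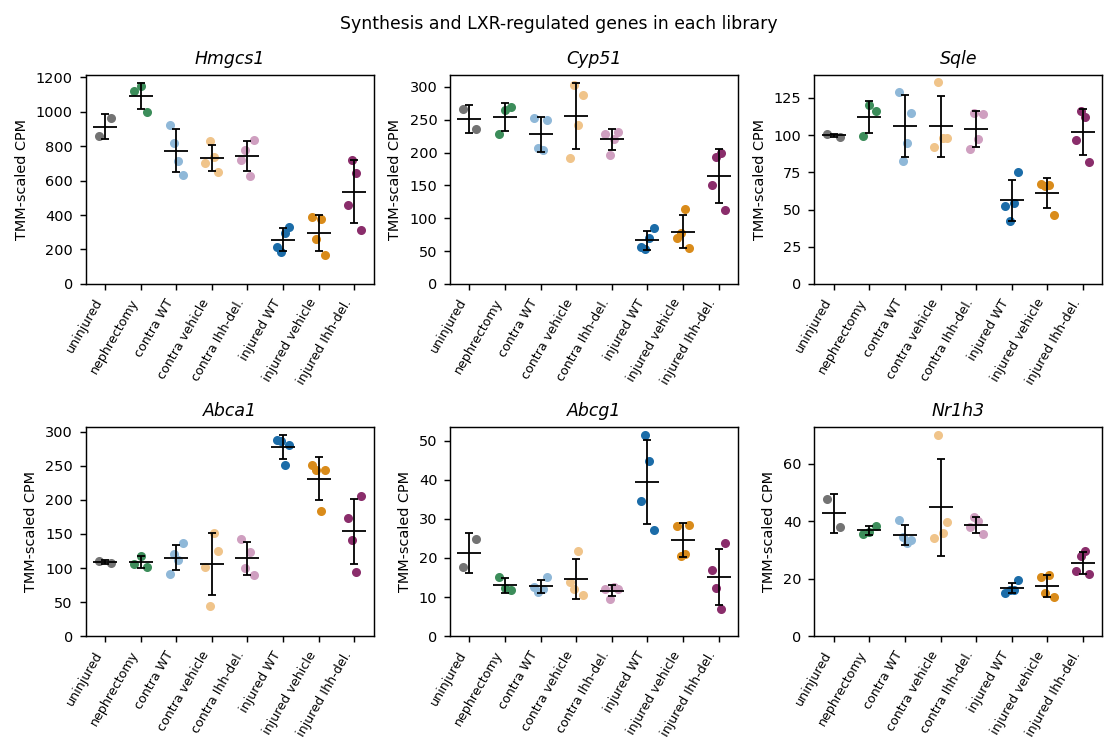
TMM-scaled CPM of 3 synthesis genes, the 2 exporters and Nr1h3 in each of the 29 libraries, with group means and standard deviations as bars. Injured wild-type and floxed vehicle libraries are low for Hmgcs1, Cyp51, Sqle and Nr1h3 and high for Abca1, and the mean of the injured labelled Ihh-deleted libraries lies between their means and the contralateral ones for these 5 genes, with single libraries inside the contralateral range for all but Nr1h3.

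Summed per library, synthesis was lower and export higher in the injured intact groups than in contralateral kidneys. Within groups the sums did not always oppose each other. The deepest library had the lowest contralateral sum of both, 1205 and 8.98 TPM. The 18 synthesis genes summed to 643 to 1130 TPM in injured wild-type, 747 to 1080 in injured floxed vehicle and 921 to 1550 in injured labelled Ihh-deleted libraries, against 1210 to 1800 in contralateral ones. Abca1 and Abcg1 together summed to 95.4 to 115, 61.2 to 97.0 and 23.6 to 65.6 TPM in the same injured groups and to 8.98 to 43.1 TPM in contralateral libraries. Hmgcs1, Idi1, Acat2 and Cyp51 weigh most in the synthesis sum. Their means were 473, 186, 142 and 141 TPM in contralateral and 299, 134, 86 and 81 TPM in injured kidneys. Abca1 outweighs Abcg1 in the export sum (63.2 against 14.3 TPM in injured kidneys). The sums and their ratio therefore follow these genes more than the others. The ratio of synthesis to export had a median of 8.23 in injured wild-type, 11.3 in injured floxed vehicle and 30.5 in injured labelled Ihh-deleted libraries, against 46.2 in contralateral, 50 in uninjured and 63.3 in nephrectomy kidneys. The ratio did not overlap between the 8 injured intact libraries (6.06 to 17.6) and the 12 contralateral ones (32.3 to 134), and the labelled Ihh-deleted ones spanned 14.1 to 57.0. The highest contralateral ratio came from the deepest library.

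Proximal tubule RNA and synthesis RNA were lowest in the same injured libraries. Injured wild-type library 2 and injured floxed vehicle library 4 had the lowest marker shares, 0.514% and 0.526% of counts, and the lowest synthesis sums, 643 and 747 TPM. Injured labelled Ihh-deleted library 3 had the highest share, 3.01%, a synthesis sum of 1347 TPM and the lowest exporter sum, 23.6 TPM. Its macrophage marker share, 0.0224%, was also the lowest of the 12. The highest injured synthesis sum, 1555 TPM, was in labelled Ihh-deleted library 2, at a proximal tubule share of 2.24%. At near-equal shares the sums differed. Labelled Ihh-deleted library 4 (1.465%), floxed vehicle library 1 (1.475%) and wild-type library 4 (1.478%) held 921, 1013 and 1132 TPM. No fit with either share as a term was made.

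**Figure D3:**
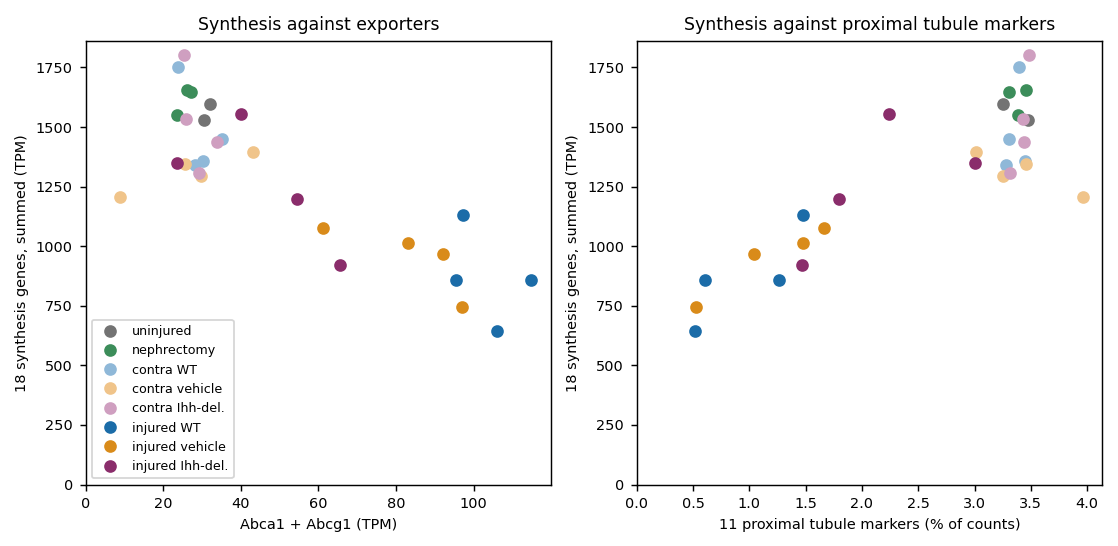
Summed TPM of the 18 synthesis genes in each of 29 libraries against the summed TPM of Abca1 and Abcg1 (left) and against the share of counts from 11 proximal tubule markers (right). Injured intact libraries lie at low synthesis, high export and low marker share, and labelled Ihh-deleted injured libraries spread from them to the contralateral ones.

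The injured kidneys of the labelled Ihh-deleted arm had more synthesis RNA and less exporter RNA than the injured kidneys of the intact arms. Of the 30 members 14 were higher and 2 lower, 16 in all, where 20.5% of all genes tested were higher and 16.7% lower, 37.2% in all. Among synthesis genes 10 of 18 were higher: Acat2, Hmgcs1, Mvd, Idi1, Sqle, Cyp51, Tm7sf2, Nsdhl, Hsd17b7 and Ebp. Cyp51 was 2.26-fold higher (log2 1.17 ± 0.16, adjusted p = 5.64e-05), Idi1 was higher by 1.11 ± 0.25, Hmgcs1 by 0.95 ± 0.20 and Sqle by 0.79 ± 0.14. Abca1 was lower by 0.72 on the log2 scale (SE 0.22, adjusted p = 0.0134) and Abcg1 by 1.04 (SE 0.24, adjusted p = 0.00229). Nr1h3 was higher by 0.57 ± 0.15, and so were Stard4 (0.42), Scap (0.37) and Insig2 (0.30). Abca1, Ebp and Insig2 did not pass without injured labelled Ihh-deleted library 3, Nsdhl not without library 2 of that group, and Stard4 not without any of 5 single libraries. Insig1 (0.04), Srebf1 (-0.19), Srebf2 (-0.07) and Soat1 (-0.03) did not pass. Mvd, Sqle, Tm7sf2 and Nr1h3 were higher in all 4 labelled Ihh-deleted libraries than in all 8 intact ones, which held for 5.61% of genes tested.

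The same comparison moved the cell markers. All 11 proximal tubule markers were higher in the labelled Ihh-deleted arm, with a median of 1.14, and their share was 1.47% to 3.01% against 0.514% to 1.67% of counts. All 9 macrophage markers were lower, with a median of -1.51. Macrophage shares were 0.0224% to 0.104% against 0.0684% to 0.259%. The part of these cells in the members' differences was not tested. The control arm also mattered: with the floxed vehicle arm alone, the same strain without tamoxifen, 8 members passed, 6 of them synthesis genes, against 16.4% of genes tested, while with the wild-type arm alone 17 did, against 38.6%. The 8 were Hmgcs1, Mvd, Idi1, Sqle, Cyp51, Tm7sf2, Scap and Nr1h3. Against the floxed vehicle arm alone Abca1 stood at -0.59 (adjusted p = 0.0967) and Abcg1 at -0.70 (adjusted p = 0.0699). Against the wild-type arm, strain and Ihh label cannot be told apart. Against the floxed vehicle arm, tamoxifen and Ihh label cannot be told apart.

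The test of the difference in injury response, labelled Ihh-deleted against intact arms, passed for 4 members: Cyp51, Mvd, Hmgcs1 and Sqle, where 16.1% of all genes tested passed. Their injury responses differed by 1.31 ± 0.24 (adjusted p = 0.00345), 0.98 ± 0.28 (adjusted p = 0.026), 0.97 ± 0.29 (adjusted p = 0.0288) and 0.82 ± 0.21 (adjusted p = 0.0147). Abca1 (-0.76 ± 0.30, adjusted p = 0.0794), Abcg1 (-0.81 ± 0.33, adjusted p = 0.0857) and Idi1 (0.86 ± 0.36, adjusted p = 0.0947) did not pass. Of all genes called, 64.4% were higher with TMM, 54.3% with RLE factors and 54.0% with DESeq2. The count rested on single libraries: it was 2 without injured labelled Ihh-deleted library 2 or 3, 12 without library 4 of that group, 7 without injured wild-type library 4 and 8 without contralateral floxed vehicle library 3. Hmgcs1 did not pass without contralateral labelled Ihh-deleted library 3, nor Mvd without library 4 of that group. With the floxed vehicle arm alone as control only Cyp51 passed, against 6.36% of genes tested. By edgeR with the 29 libraries, members passed no more often than all genes tested in either comparison. Shares over all genes are not given for the fits with single libraries left out. By DESeq2 7 members passed, where 2008 of the 25101 genes in that fit were higher and 1713 lower.

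Other lipid genes gave a mixed picture. Of 12 fatty acid synthesis genes, which SREBP-1 controls, 5 fell and Elovl6 rose after injury over the 3 arms, with a median of 0.01, where 34.7% of all genes tested fell and 39.0% rose. The falls were largest in Me1 (-1.46), Acss2 (-1.39) and Fads2 (-1.22), enzymes that give reducing power, acetyl-CoA and desaturation, while Fasn stood at 0.31 and Scd1 at 0.15 without passing. Of 17 genes of lysosomal release, uptake and oxysterol metabolism, 15 were tested, 5 rose and 9 fell. Ch25h, which makes 25-hydroxycholesterol, rose by 2.35 and Lrp1, a large uptake receptor, by 1.27. Cyp7b1, which breaks oxysterols down, fell by 1.4 and Lipa, the lysosomal lipase, by 1.13. Of 7 genes that use isoprenoids for other products, 4 fell, Coq2, Pdss1, Dhdds and Pdss2, by 0.664 to 0.885, and Pggt1b rose by 0.15. The same shares over all genes apply to these counts.

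In the labelled Ihh-deleted injured kidneys, 4 of the 12 fatty acid genes were higher than in intact ones: Acss2 (1.17), Me1 (1.13), Fads2 (0.94) and Fads1 (0.27). Of the oxysterol and uptake genes 6 were higher and 4 lower, led by Cyp7b1 (2.17) and Lrp1 (-1.16). Of the isoprenoid branch 3 of 7 were higher. Over all genes tested 20.5% were higher and 16.7% lower. The injury response differed in Cyp7b1 (2.28), Acss2 (1.03), Me1 (1.11), Fads2 (0.90) and Lrp1 (-1.37) among others, with 3 of 12 fatty acid genes, 5 of 15 oxysterol and uptake genes and 2 of 7 branch genes past the threshold, against 16.1% of all genes tested.

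Contralateral kidneys of the labelled Ihh-deleted and the intact arms did not differ in any member by edgeR: 0 of 30 passed, 1 at an unadjusted p under 0.05, and 0 by DESeq2. Of all genes tested 0.00568% passed. The synthesis median was 0.00, and the members' log2 differences ran from -0.31 to 0.33.

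Among kidneys that were not themselves tied, Srebf1 was lower in contralateral than in uninjured and nephrectomy kidneys. It stood at 97.0 and 130 CPM in the 2 uninjured libraries and at 106, 125 and 104 CPM in the nephrectomy libraries, and the 12 contralateral libraries held 39.7 to 77.1 CPM. Contralateral kidneys were lower than uninjured ones by 0.95 on the log2 scale (SE 0.15, adjusted p = 0.00283), the only member of 30 that passed, where 0.455% of all genes did. Of those called, 52.5% were higher with TMM and 40.6% with DESeq2. That call was lost without uninjured library 3, which left the library of 593231 counts alone. Nephrectomy kidneys were higher than contralateral ones by 0.89 ± 0.12 (adjusted p = 2.71e-05). Insig1 was higher there too, by 0.74 ± 0.19 (adjusted p = 0.0181), with 138, 140 and 115 CPM in nephrectomy, 93.5 and 129 CPM in uninjured and 55.0 to 113 CPM in contralateral libraries. Lss, the lanosterol synthase, was higher by 0.31 ± 0.09 (adjusted p = 0.0436), a call lost without any of 10 single libraries. These 3 of 30 members compare with 5.63% of all genes tested. Without nephrectomy library 1, the one with heart RNA, or without library 2, only Srebf1 passed, and without the deepest library 5 members did. Against uninjured kidneys 0 of 30 members passed in nephrectomy kidneys by edgeR, 1 at an unadjusted p under 0.05 and 0 by DESeq2, where 0.176% of all genes passed. The 2 uninjured libraries limit both comparisons. Contralateral means pool the wild-type tamoxifen arm with both arms of the floxed strain, while uninjured and nephrectomy kidneys were C57/BL6 with no tamoxifen named. In these pooled comparisons strain, tamoxifen and contralateral status cannot be told apart. Adipocyte markers differed between these groups without passing: their median was -3.82 in nephrectomy and -2.69 in contralateral against uninjured kidneys.

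Per transcript length, Hmgcs1 stood above the other members in contralateral kidneys at 473 ± 80.2 TPM (SD, n = 12). Idi1 (186 ± 54.4), Acat2 (142 ± 17.3) and Cyp51 (141 ± 22.1) followed and did not differ beyond their spread. Sqle came next at 76.5 ± 12.3 TPM, below Cyp51 by more than the spread of both. From Sqle down to Lss, at 14.5 ± 3.12 TPM, each gene lay within the spread of the next. Pmvk (8.69 ± 2.02) and Abcg1 (5.01 ± 1.56) were the lowest. In injured kidneys the same 4 genes led, no neighbours in the order differed beyond their spread, and Abca1 went from 23.3 ± 6.96 to 63.2 ± 22.0 TPM.

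Across the 29 libraries, after subtraction of each group's mean from the log2 CPM, the genes most like Abca1 were Vps13c (Pearson r = 0.861), Syne3, Ahnak2, Ahnak and Sike1 (0.852). Those most like Sqle were Clpx (0.952), Htra1, Ndrg1, Osbpl8 and Ubqln1 (0.904). None of these is a member. Pairs of synthesis genes had a median r of 0.374, synthesis genes with the 2 exporters -0.461, and Abca1 with Abcg1 0.54. Libraries share depth and cell makeup, so these values are a description. The deepest library, which stood apart, is among the 29, and the correlations are not given without it.

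Of single-cell barcodes 3063 came from the injured kidney with a median of 2014 unique molecular identifiers (UMIs) each and 1313 from the uninjured kidney with a median of 2391, and 8 barcodes occurred in both. Median mitochondrial shares were 5.97% and 23.6% of UMIs. With 1 library per condition there is no test, and intervals are exact 95% Poisson limits that cover counting error only. Clusters were made without the 30 members and named from marker genes.

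Synthesis RNA had its highest value in proximal tubule-like cells of both libraries, though the interval of intercalated-like cells overlapped theirs. The 18 genes summed to 751 CPM (716 to 787) over 903 injured cells and to 719 CPM (690 to 748) over 1047 uninjured cells. Over all cells the sums were 509 CPM (493 to 525) in the injured and 674 CPM (649 to 700) in the uninjured library. Proximal tubule-like cells gave 44.3% of the synthesis UMIs of the injured library and 87.7% of those of the uninjured one. Among barcodes with at most 20% mitochondrial UMIs, the proximal tubule-like sums were 822 CPM in the injured and 885 CPM in the uninjured library, so the order of the libraries turned. The sort kept live cells and cell yields differ by type, so shares of cells are not shares of the tissue.

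Within proximal tubule-like cells Hmgcs1 led in both libraries, at 220 and 221 CPM in injured and uninjured. Cyp51 stood at 37.8 and 30.3 CPM, Mvd at 39.1 and 38.7, Idi1 at 78.6 and 67.8 and Sqle at 23.6 and 28.5. Acat2 (107 against 78.6 CPM) was higher and Insig1 (13.7 against 36.9 CPM) lower in the injured library. The limit of 20% mitochondrial UMIs turned the order of the synthesis sum in these cells, and single genes are not given under it. In the injured library intercalated-like cells stood at 686 CPM (598 to 783) for the 18 synthesis genes. The intervals of the other named classes lay below that of proximal tubule-like cells, among them fibroblast and mural-like cells at 496 CPM, dendritic-like cells at 484, macrophage-like cells 370 (330 to 414), endothelial-like cells 292 (245 to 344) and plasma-like cells 195. A cluster of 205 injured and 32 uninjured cells stayed unnamed, with genes of injured tubule and thick limb among its leaders, and stood at 437 CPM in the injured library. RNA free in the droplets was not measured or subtracted.

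The exporters had another distribution. Abca1 and Abcg1 together made 114 CPM (85.7 to 149) in endothelial-like and 92.8 CPM (73.2 to 116) in macrophage-like cells of the injured kidney. Proximal tubule-like cells held 7.73 CPM (4.58 to 12.2) in the injured and 5.10 CPM (2.97 to 8.16) in the uninjured library, and plasma-like cells 0 of 421232 UMIs, which allows up to 8.76 CPM by the exact interval. Over all cells the exporters stood at 34.0 CPM (30.1 to 38.4) in the injured and 10.4 CPM (7.47 to 14) in the uninjured library. Macrophage-like cells gave 29.2% and endothelial-like cells 20.5% of the exporter UMIs of the injured library. The uninjured library held 17 macrophage-like and 53 endothelial-like cells, with 4 and 6 exporter UMIs. Soat1 and Npc1, which rose in bulk, were highest among the classes in injured macrophage-like cells, at 66.3 and 55.4 CPM, against 11.2 and 7.73 CPM in proximal tubule-like cells of that library. Nr1h3, which fell in bulk, stood at 29.2 CPM in injured proximal tubule-like and 28.9 CPM in injured macrophage-like cells.

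**Figure D4:**
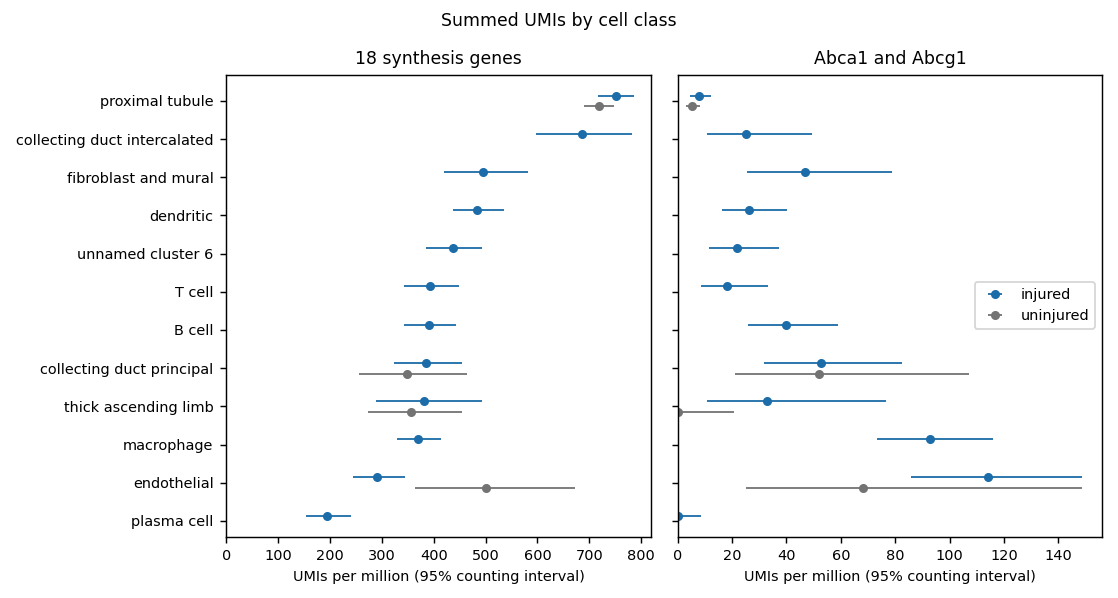
Summed CPM of the 18 synthesis genes (left) and of Abca1 and Abcg1 (right) by cell class in the injured and the uninjured single-cell library, for classes of at least 50 cells, with 95% counting intervals. Proximal tubule-like cells are at the top for synthesis in both libraries (751 and 719) and near the bottom for the exporters (7.73 and 5.10).

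Adrenal cells, which make much cholesterol and sit beside the kidney, left little RNA. The 6 adrenal cortex markers made 0.000555% to 0.00159% of counts in injured and 0.000177% to 0.000433% in contralateral libraries. Cyp11b1, the enzyme of the adrenal cortex, had 0 counts in 10 of 12 injured and in 11 of 12 contralateral libraries. Of the 6, 2 were tested and both rose after injury, Akr1b7 and Star, with a median of 1.13. All 4 adipocyte markers stood higher in injured kidneys without passing (median 1.24), all 6 injured tubule markers rose (median 3.32), and of 4 thick ascending limb markers 1 rose and 2 fell. Of 5 heart markers tested 4 rose, and heart genes made at most 0.00104% of counts in injured libraries.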

How the data were processed

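Bulk RNA was measured in 8 groups of 4 columns, and single cells in 2 libraries. Per the submitters' processing notes, reads were processed with Salmon 1.4, STAR and Cell Ranger. The roles of the tools are not given there. The authors deposited expected counts for 105833 bulk transcripts. For single cells the authors deposited raw UMI counts by gene symbol. Columns of per-sample values left unused numbered 0.

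Transcripts were summed to genes by GENCODE M21 names (105203 matched, and the other 630 held 0.213% of counts), and the sums were rounded. 3 libraries with a heart profile were left out. The other 29, with 593231 to 37975751 counts, were fitted together in edgeR 4.0.16 (R 4.3.3) with filterByExpr, TMM factors and the quasi-likelihood test, Benjamini-Hochberg adjusted over 17591 genes at 0.05. DESeq2 1.42.0, RLE factors, no filter, all 32 libraries, a replicate block, each library left out and each control arm alone were alternatives. TPM used each transcript's length in the reference. The code was tested on simulated data.

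Single cells were clustered (Leiden, resolution 1) without the 30 members, and clusters were named from markers. No doublet caller was run. Genes named with values in every library were Hmgcs1, Idi1, Sqle, Cyp51, Insig1, Srebf1, Srebf2, Stard4, Soat1, Nr1h3, Abca1 and Abcg1, and members with an absolute log2 change of 1 or more. Members and lists were chosen with earlier results of these data known. Intervals cover counting error only.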

Additional observations from a re-analysis of the deposited data

Results flagged for a closer look

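Among 16 members, 96 groups of 4 libraries were examined for a library far from the others of its group, and 6 values stood out. Chance gives about 1 in 20. Sqle stood at 46.1 CPM in injured floxed vehicle library 4, below the other 3, and at 136 CPM in contralateral floxed vehicle library 2, above the other 3. Insig1 was at 89.9 CPM in that same contralateral library, the deepest of the series. Abca1 stood at 183 CPM in injured floxed vehicle library 3, Abcg1 at 9.53 CPM in contralateral labelled Ihh-deleted library 2 and Ebp at 67.6 CPM in contralateral labelled Ihh-deleted library 1.

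The injury response of the labelled Ihh-deleted arm differed from that of the intact arms in 4 of 30 members by the interaction test of edgeR, where 16.1% of all genes tested passed. With the floxed vehicle arm alone as control only Cyp51 did, against 6.36%. In neither comparison did members pass more often than all genes tested. The difference in log2 fold change was 1.31 for Cyp51, 0.98 for Mvd, 0.97 for Hmgcs1 and 0.82 for Sqle. Proximal tubule and macrophage marker shares differed between the same injured groups, and their part in these differences was not tested.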

How the results depend on the processing

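Counts are of the 30 members past the threshold. The shares over all genes are not given for the fits with all 32 libraries or with single libraries left out. With all 32 libraries, heart profiles included, 20 of the 27 passed for injury over the 3 arms (not Sqle, Lss, Msmo1, Srebf1, Nr1h2, Soat1 or Npc1), 12 passed in the wild-type arm, 11 in the floxed vehicle arm, 1 in the labelled Ihh-deleted arm, 2 between injured arms (1 of them a synthesis gene), 0 in the injury response difference and 7 between contralateral and uninjured kidneys. With the floxed vehicle arm alone as control, chosen after seeing the data, 8 differed between injured arms, 6 of them synthesis genes, and 1 in injury response. DESeq2 gave 7 for the injury response, where 2008 of the 25101 genes in that fit were higher and 1713 lower. Without the deepest library 5 passed between nephrectomy and contralateral kidneys. The cause of these shifts was not tested.

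With single libraries left out, the counts ran from 26 to 28 for injury over the 3 arms (15 to 17 synthesis genes), from 18 to 23 in the wild-type arm, from 19 to 22 in the floxed vehicle arm, from 3 to 15 in the labelled Ihh-deleted arm, from 12 to 17 between injured arms (9 to 11 synthesis genes), from 2 to 12 for the injury response, from 0 to 1 for contralateral against uninjured, from 1 to 5 for nephrectomy against contralateral, and 0 to 0 for both the contralateral arms and nephrectomy against uninjured kidneys.

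Members that did not pass turned sign near 0. Srebf2 after injury was 0.00 with all 32 libraries, 0.07 with RLE factors and with DESeq2, and -0.04 to 0.00 with single libraries left out. Between injured arms, Insig1 was -0.05 against the wild-type arm alone, -0.01 with RLE factors and DESeq2, and -0.14 (without injured labelled Ihh-deleted library 2) to 0.18 with single libraries left out. Srebf1 was 0.03 against the floxed vehicle arm alone and Srebf2 0.01 against the wild-type arm alone. Soat1 ran from -0.08 to 0.02 with single libraries left out. Lss, called between nephrectomy and contralateral kidneys, was -0.01 there with all 32 libraries. Of the other values for single members, 2235 kept direction and side of the threshold, 173 lost the threshold and 10 gained it.

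Same-numbered injured and contralateral columns had correlations of -0.191 to 0.179 over 12 pairs, over 0.1 in 6 of them, with the own number best in 5, so they were not treated as pairs. With the replicate block 26 members passed over the 3 arms (not Nr1h2), 22 in the wild-type arm (not Npc1), 20 in the floxed vehicle arm (not Hsd17b7) and 11 in the labelled Ihh-deleted arm (Insig1 in place of Acat2).

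In single cells, a limit of 20% mitochondrial UMIs gave synthesis sums over all cells of 487 CPM (injured) and 796 CPM (uninjured), and exporter sums of 39.6 and 17.4 CPM. At Leiden resolution 0.5, macrophage-like synthesis was 291 CPM. The 2 uninjured libraries, 1 of them with 593231 counts, limit every comparison with them.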
